A study of Homo sapiens with 3 samples.

Results

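A group of 10 genes of the aldehyde dehydrogenase family, ALDH1A1, ALDH1A2, ALDH1A3, ALDH1B1, ALDH2, ALDH3A2, ALDH3B1, ALDH3B2, ALDH7A1 and ALDH9A1, were followed in drug-resistant MM468 cells. They were taken by gene symbol, 10 of the 46427 genes of the deposited table, and all 10 were found. ALDH3A1, a known target of the aryl hydrocarbon receptor (AhR), was left out of the group by this rule. MM468 is MDA-MB-468, an established epithelial breast cancer cell line derived from triple-negative breast cancer (TNBC). RNA was sequenced from untreated parental cells, from the adriamycin-resistant cells that survived adriamycin at 10 to 140 nM, and from the paclitaxel-resistant cells that survived paclitaxel at 2 to 320 nM. All 3 samples carry a wild-type genotype label and the same culture medium, and whether the resistant cells were free of drug at harvest is not given in the sources used here. Each line has 1 library, so no SD can be given and the lines cannot be compared against a spread of replicates. The counts summed to 32704885 in parental, 47567927 in adriamycin-resistant and 43242628 in paclitaxel-resistant cells.

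Aldehyde dehydrogenases oxidize aldehydes to carboxylic acids with NAD or NADP. The ALDH1A enzymes turn retinaldehyde into retinoic acid, the ligand of the nuclear retinoic acid receptors, and aldehyde dehydrogenase activity is widely used to sort stem-like cells in breast cancer. Other family members clear acetaldehyde, fatty aldehydes and aldehydes of lipid peroxidation, or act in the breakdown of amino acids.

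The labelled epithelial cell type was checked against its markers, which were abundant in all 3 libraries. The 7 epithelial genes EPCAM, CDH1, KRT8, KRT18, KRT19, CLDN3 and CLDN4 had a summed level of 6482 TPM (the deposited level per transcript length) in parental, 7347 in adriamycin-resistant and 6573 in paclitaxel-resistant cells. Markers of other cell types were low. Their summed levels in the same order were 9.54, 13.4 and 8.05 TPM for 7 fibroblast genes, mostly COL1A1, and 12.9, 16.5 and 4.29 TPM for 6 immune genes, led by CD68. The 4 endothelial genes summed to 2.72, 0.867 and 0.563 TPM, led in parental and adriamycin-resistant cells by KDR and in paclitaxel-resistant cells by CDH5, with KDR at 209, 61 and 19 counts. Of the 5 erythroid genes HBB and ALAS2 had 0 counts in all 3 libraries, as had LUM and COL1A2 of the fibroblast genes. The erythroid sum was 0, 0.584 and 3.65 TPM, led in paclitaxel-resistant cells by HBA1. CD68, a macrophage gene, had 206, 527 and 65 counts, highest and lowest in the same libraries as ALDH1B1, and the receptor genes PDGFRA and CSF1R had 152, 12 and 16 and 259, 235 and 112 counts. CLDN3 had 932, 2298 and 362 counts. The part of these markers in the results was not tested.

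Promoter sequences are shown for the ALDH1A genes and ALDH1B1, because these related genes range from the most to the least abundant member in parental cells and 3 of them differed by at least 2-fold in a resistant line. RefSeq windows of the GRCh38.p14 build, from 250 bases before to 50 bases after the transcript start, held 8 of the 10 members in 11 windows. ALDH2 and ALDH3B2 were not among them. Capitals mark GCGTG or its reverse complement CACGC, the core of the AhR response element, and CCAAT or its reverse complement ATTGG, each read on both strands.
ALDH1A1 (chr9:72953004-72953303, minus strand): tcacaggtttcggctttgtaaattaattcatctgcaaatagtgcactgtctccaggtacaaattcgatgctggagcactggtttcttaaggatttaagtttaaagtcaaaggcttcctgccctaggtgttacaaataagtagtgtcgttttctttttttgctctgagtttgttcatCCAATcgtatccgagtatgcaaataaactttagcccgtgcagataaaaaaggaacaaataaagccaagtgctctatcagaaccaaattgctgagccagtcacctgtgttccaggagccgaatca
ALDH1A2 (chr15:58065662-58065961, minus strand): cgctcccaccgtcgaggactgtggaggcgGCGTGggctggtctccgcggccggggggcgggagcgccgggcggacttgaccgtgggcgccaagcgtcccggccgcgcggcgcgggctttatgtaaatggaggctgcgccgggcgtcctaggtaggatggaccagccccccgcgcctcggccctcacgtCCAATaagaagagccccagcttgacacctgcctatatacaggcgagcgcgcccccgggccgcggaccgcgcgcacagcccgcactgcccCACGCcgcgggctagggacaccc
ALDH1A3 (chr15:100879581-100879880, plus strand): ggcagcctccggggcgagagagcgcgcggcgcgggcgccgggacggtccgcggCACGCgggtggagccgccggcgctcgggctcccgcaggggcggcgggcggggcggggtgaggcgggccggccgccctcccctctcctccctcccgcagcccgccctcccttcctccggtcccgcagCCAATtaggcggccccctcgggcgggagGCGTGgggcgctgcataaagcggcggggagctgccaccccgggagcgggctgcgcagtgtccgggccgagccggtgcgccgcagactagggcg
ALDH1B1 (chr9:38392452-38392751, plus strand): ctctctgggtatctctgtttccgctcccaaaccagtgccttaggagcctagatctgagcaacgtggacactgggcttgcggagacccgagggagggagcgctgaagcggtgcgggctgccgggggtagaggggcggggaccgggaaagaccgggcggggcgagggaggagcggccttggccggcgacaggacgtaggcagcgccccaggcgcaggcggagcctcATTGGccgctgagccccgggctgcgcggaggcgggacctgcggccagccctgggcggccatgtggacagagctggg
The ALDH1A1 window held 7 CG pairs at a GC content of 40.3%. The ALDH1A3 window held 46 at 81.7%, and those printed for ALDH1A2 and ALDH1B1 held 41 and 27. A second ALDH1A2 window, at chr15:58013974-58014273, held 1 CG pair and neither motif. The median over 34943 RefSeq promoter windows was 14. GCGTG was found in 3 of the 11 member windows, 1 of ALDH1A2, that of ALDH1A3 and 1 of ALDH3A2, and in 36.5% of all windows. CCAAT was found in 6 of the 11, ALDH1A1 included, and in 34.6% of all windows. The motifs overlapped at 0 places. A match is a description of these letters and not a binding site.

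ALDH1A3 was the most abundant of the 10 genes in every library, and the order below it differed between the lines. ALDH1A3 stood at 495 TPM in parental, 636 in adriamycin-resistant and 638 in paclitaxel-resistant cells, above 98.9%, 99.1% and 99.2% of protein-coding genes. It made up 54.0%, 61.9% and 62.0% of the summed level of the 10 genes, which was 918, 1029 and 1029 TPM. In parental cells ALDH3B2 followed with 163 TPM, then ALDH7A1, ALDH9A1, ALDH3A2, ALDH1B1 and ALDH3B1 with 85.4, 71.9, 54.5, 26.0 and 13.1 TPM. ALDH2 at 5.79 TPM, ALDH1A2 at 2.09 and ALDH1A1 at 0.586 closed the parental order. In adriamycin-resistant cells ALDH1A1 stood at 4.90 TPM, above ALDH2 at 2.00 and ALDH1A2 at 0.580. In paclitaxel-resistant cells ALDH1A2, ALDH1A1 and ALDH2 were at 0.426, 0.286 and 0.0960 TPM, so that ALDH2 came last. ALDH3B2 went from rank 2 in parental and adriamycin-resistant cells to rank 5 in paclitaxel-resistant cells, where its level was 54.3 TPM and ALDH7A1 was at rank 2 with 171 TPM. Within each library, the 95% counting intervals of neighbours in the order did not overlap, except between ALDH1A2 and ALDH1A1 and between ALDH1A1 and ALDH2 in paclitaxel-resistant cells. These intervals leave out variation between cultures.

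Against parental cells, 5 of the 10 genes (ALDH2, ALDH1A2, ALDH3B2, ALDH1B1 and ALDH1A1) were lower by 2-fold or more in paclitaxel-resistant cells and 0 were higher. In adriamycin-resistant cells 2 (ALDH1A2 and ALDH2) were lower and 1 (ALDH1A1) was higher. No test stands behind these numbers, which count fold changes of scaled counts between single libraries. Of all 19099 genes compared, 34.0% differed by 2-fold or more in paclitaxel-resistant cells, 13.5% to lower and 20.5% to higher levels. In adriamycin-resistant cells it was 22.3% of 17950 genes, with 11.2% lower and 11.0% higher. In paclitaxel-resistant cells 3 members were lower from FPKM with a pseudocount of 1. The 2 lower members in adriamycin-resistant cells are close to that background, and with a pseudocount of 1 the number was 1 from TPM and 0 from FPKM. The median log2 fold change of the 10 genes was -0.93 in paclitaxel-resistant cells, against 0.07 over all genes compared, and 0.23 in adriamycin-resistant cells, against 0.03. Both comparisons share the parental library, and in such bulk RNA fewer cells with a transcript and less of it per cell cannot be told apart. All 10 genes reached the minimum of 10 counts in 1 of the 2 libraries in each comparison. The fold changes below are ratios of counts scaled with TMM factors, and their 95% intervals cover counting error only.

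**Figure D1:**
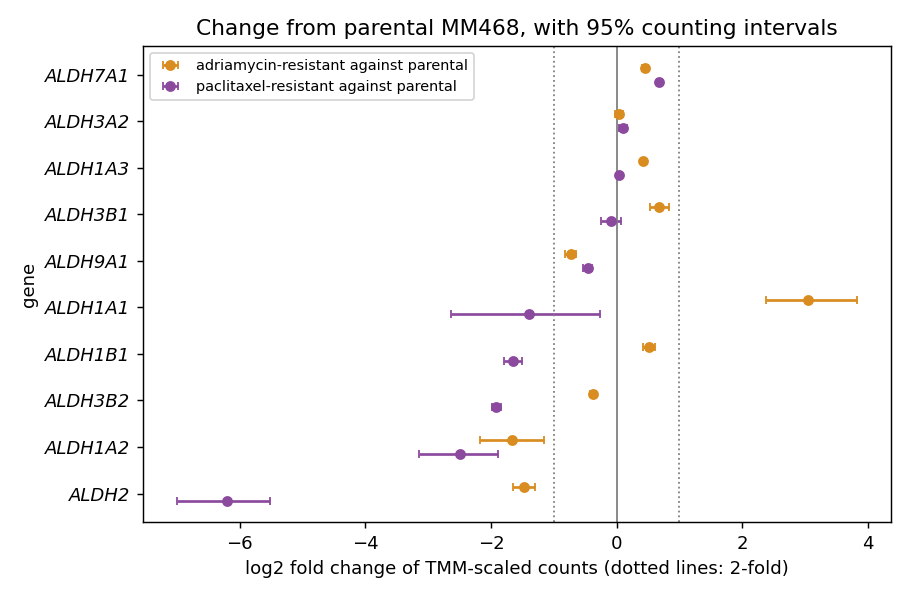
Log2 fold change of TMM-scaled counts from parental cells for each gene (1 library a line), with exact 95% counting intervals and dotted lines at 2-fold. ALDH2 lies at -6.20 in paclitaxel-resistant cells, and ALDH1A1 lies at 3.05 in adriamycin-resistant and -1.40 in paclitaxel-resistant cells.

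ALDH1A1 (NCBI Gene ID 216, chromosome 9 from 72900671 to 72953053), a cytosolic retinaldehyde dehydrogenase used as a stem cell marker, was the 1 member higher in adriamycin-resistant cells. It had 19 counts in parental, 232 in adriamycin-resistant and 11 in paclitaxel-resistant cells. The adriamycin-resistant library stood above the other two, which both had few counts. ALDH1A1 was 8.30-fold higher (95% interval 5.22 to 14.1) in adriamycin-resistant cells. With a pseudocount of 1, its log2 fold change there was 1.90 from TPM and 1.33 from FPKM, in place of 3.05. In paclitaxel-resistant cells ALDH1A1 was 2.64-fold lower (95% interval 1.20 to 6.20), a value that rests on 19 and 11 counts. It came to a log2 fold change of only -0.16 from FPKM with a pseudocount of 1.

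ALDH1A2 (NCBI Gene ID 8854, chromosome 15 from 57953429 to 58065711), which makes retinoic acid in the embryo, had 106 counts in parental, 49 in adriamycin-resistant and 29 in paclitaxel-resistant cells. Both resistant libraries were below the parental library. ALDH1A2 was 3.16-fold lower (95% interval 2.24 to 4.54) in adriamycin-resistant and 5.61-fold lower (95% interval 3.71 to 8.82) in paclitaxel-resistant cells. With a pseudocount of 1, FPKM put its log2 fold change within 2-fold in both lines, at -0.58 and -0.68, and TPM at -0.97 in adriamycin-resistant cells. ALDH1A3 (NCBI Gene ID 220, chromosome 15 from 100879831 to 100916626), the retinaldehyde dehydrogenase with the highest level of the 10 genes, had 25368 counts in parental, 49671 in adriamycin-resistant and 40313 in paclitaxel-resistant cells. Its scaled levels were 818, 1095 and 843 CPM (counts scaled for depth and composition) in the same order, so that all 3 libraries stood close together. ALDH1A3 was 1.34-fold higher (95% interval 1.32 to 1.36) in adriamycin-resistant and 1.03-fold higher (95% interval 1.01 to 1.05) in paclitaxel-resistant cells, short of 2-fold in both. The latter, a log2 fold change of 0.04, depended on the scaling. It was 0.27 with library size only, and 0.37 from TPM and 0.29 from FPKM with a pseudocount of 1.

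ALDH2 (NCBI Gene ID 217, chromosome 12 from 111766933 to 111817532), the mitochondrial enzyme that oxidizes acetaldehyde, had the largest difference of the 10 genes in paclitaxel-resistant cells. It had 817 counts in parental, 431 in adriamycin-resistant and 17 in paclitaxel-resistant cells. The parental library was highest and the paclitaxel-resistant library close to 0. ALDH2 was 2.77-fold lower (95% interval 2.47 to 3.12) in adriamycin-resistant and 73.5-fold lower (95% interval 46.0 to 128) in paclitaxel-resistant cells. Of all genes compared in paclitaxel-resistant cells, 0.984% had a lower fold change. On the FPKM scale with a pseudocount of 1, which shrinks changes of genes with low levels, the log2 fold change was -1.71 in place of -6.20 in paclitaxel-resistant cells, and -0.86 and so within 2-fold in adriamycin-resistant cells.

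ALDH1B1 (NCBI Gene ID 219, chromosome 9 from 38392702 to 38398661), another mitochondrial enzyme and a close relative of ALDH2, had 1166 counts in parental, 2438 in adriamycin-resistant and 572 in paclitaxel-resistant cells. The adriamycin-resistant library was the highest and the paclitaxel-resistant library the lowest. ALDH1B1 was 1.43-fold higher (95% interval 1.33 to 1.53) in adriamycin-resistant cells and 3.14-fold lower (95% interval 2.84 to 3.48) in paclitaxel-resistant cells.

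ALDH3B2 (NCBI Gene ID 222, chromosome 11 from 67662155 to 67681252) and ALDH3B1 (NCBI Gene ID 221, chromosome 11 from 68008547 to 68029276), which acts on aldehydes of lipid peroxidation, are related genes of chromosome 11 with 327 kb between them. ALDH3B2 had 6453 counts in parental, 7279 in adriamycin-resistant and 2641 in paclitaxel-resistant cells. Its parental and adriamycin-resistant libraries were close after scaling, and the paclitaxel-resistant library was lower. ALDH3B2 was 1.30-fold lower (95% interval 1.25 to 1.34) in adriamycin-resistant and 3.77-fold lower (95% interval 3.60 to 3.94) in paclitaxel-resistant cells. ALDH3B1 had 541 counts in parental, 1269 in adriamycin-resistant and 782 in paclitaxel-resistant cells. It was 1.60-fold higher (95% interval 1.45 to 1.78) in adriamycin-resistant cells. In paclitaxel-resistant cells its interval included no change, with a log2 fold change of -0.09 that turned to 0.13 with library size only. ALDH3B2 was thus lower by over 2-fold in paclitaxel-resistant cells, and its relative was not.

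ALDH3A2 (NCBI Gene ID 224, chromosome 17 from 19648136 to 19677596), the fatty aldehyde dehydrogenase of the endoplasmic reticulum, had 2999 counts in parental, 4496 in adriamycin-resistant and 4955 in paclitaxel-resistant cells. Its scaled levels of 96.7, 99.1 and 104 CPM were the closest together of the 10 genes. The log2 fold changes were 0.03 and 0.10 in adriamycin- and paclitaxel-resistant cells, respectively. The first turns to -0.03 on the TPM scale. ALDH3A1 lies 60.4 kb from it and is given with the other family members.

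ALDH7A1 (NCBI Gene ID 501, chromosome 5 from 126541841 to 126595219), an enzyme of lysine breakdown, had 6014 counts in parental, 12068 in adriamycin-resistant and 14874 in paclitaxel-resistant cells. Both resistant libraries were above the parental library, and the paclitaxel-resistant library was highest. ALDH7A1 was 1.37-fold higher (95% interval 1.33 to 1.41) in adriamycin-resistant and 1.60-fold higher (95% interval 1.56 to 1.65) in paclitaxel-resistant cells, both short of 2-fold. On the TPM scale with a pseudocount of 0.1 the latter came to a log2 fold change of 1.00, just past 2-fold. ALDH9A1 (NCBI Gene ID 223, chromosome 1 from 165662216 to 165698562), which oxidizes the aldehyde precursor of gamma-butyrobetaine in carnitine synthesis, had 2672 counts in parental, 2351 in adriamycin-resistant and 2994 in paclitaxel-resistant cells. Both resistant libraries were below the parental library after scaling. ALDH9A1 was 1.66-fold lower (95% interval 1.57 to 1.76) in adriamycin-resistant and 1.38-fold lower (95% interval 1.31 to 1.45) in paclitaxel-resistant cells. The latter, a log2 fold change of -0.46, depended on the scaling. It was -0.24 with library size only, and -0.14 from TPM and -0.21 from FPKM with a pseudocount of 1.

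The resistant lines also differed from each other. Between them, 4 of the 10 genes were at least 2-fold lower in paclitaxel-resistant than in adriamycin-resistant cells and 0 were higher. Of 19327 genes, 33.3% differed by that much, with 13.3% lower and 20.0% higher. ALDH2 was 26.5-fold lower (95% interval 16.5 to 46.3) and ALDH1A1 22.0-fold lower (95% interval 12.2 to 45.1). From FPKM with a pseudocount of 1, the log2 fold change was -0.85 for ALDH2, so within 2-fold, and -1.49 for ALDH1A1. ALDH1B1 was 4.49-fold lower (95% interval 4.10 to 4.93) and ALDH3B2 2.90-fold lower (95% interval 2.78 to 3.04). These values share their libraries with the comparisons against parental cells and add no independent sample. The other 6 genes were within 2-fold. ALDH1A3 was at -0.38 on the log2 scale with TMM and at 0.00 from TPM with a pseudocount of 1, so its order between the resistant lines depended on the scaling.

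The genes most like the 3 members with the widest range over the libraries were found by distance in the plane of both log2 fold changes from parental cells, taking only protein-coding genes that reached 100 counts in any library. With 3 libraries, such a likeness is a description only. For ALDH2 they were CLDN10, ATP6V1B1 and CYP4X1, at distances of 0.45, 0.53 and 0.53 on the log2 scale. CLDN10, a tight junction claudin, went from 2710 counts in parental to 1955 in adriamycin-resistant and 55 in paclitaxel-resistant cells. For ALDH1A1 the nearest were POTEF, DDO and FHL1, at distances of 0.34, 0.43 and 0.44. FHL1, a LIM domain protein, had 113, 1029 and 73 counts in the same order. For ALDH1A2 they were ELFN2, TGFB2 and ROR1, at 0.06, 0.08 and 0.12. TGFB2, a transforming growth factor beta ligand, had 7412, 3280 and 1963 counts.

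The genes beside the members on the chromosome were looked at after their values were seen. Those of ALDH2, ALDH1B1, ALDH1A1, ALDH3B2 and ALDH3A2 are given, and those of the other members are not reported here. ALDH2 has ACAD10 at 9834 bases on one side and MAPKAPK5 at 24696 bases on the other. ACAD10 had log2 fold changes of 0.75 in adriamycin-resistant and 0.88 in paclitaxel-resistant cells, and MAPKAPK5 had 0.01 and 0.38, so neither neighbour was lower with ALDH2. ALDH1B1 lies between SHB, at 323475 bases, and IGFBPL1, at 7867. In paclitaxel-resistant cells SHB was at -2.37 and IGFBPL1 at -2.72, both at least 2-fold lower as ALDH1B1 was, and in adriamycin-resistant cells they were at -0.01 and -0.32. Over all genes compared in paclitaxel-resistant cells, 13.5% were at least 2-fold lower. ALDH1A1 lies between TMC1, at 62374 bases, and ANXA1, at 198812, which were at -1.59 and 0.53 in adriamycin-resistant and 2.27 and 0.85 in paclitaxel-resistant cells, the reverse of ALDH1A1 for TMC1. ACY3, beside ALDH3B2 with 43, 36 and 21 counts, was at -1.65 in paclitaxel-resistant cells, lower as ALDH3B2 was. LOC112268076, on the other side with 1, 8 and 11 counts, was at 2.72 in paclitaxel-resistant cells, the reverse of ALDH3B2. SLC47A1 and SLC47A2, on either side of ALDH3A2, were at 2.04 and 2.60 there, where ALDH3A2 was at 0.10.

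Reads of close relatives could be assigned to the wrong member. Of the distinct 50-base stretches in the GENCODE v29 transcripts of ALDH3B2, 1.09% were also in ALDH3B1, and for ALDH1A1 0 of 2821 were in a transcript of any other gene. For ALDH7A1 2.69% were shared, mostly with the pseudogene ALDH7A1P1. For ALDH2 9.45% were shared, with 619 other genes and the most with AC002996.1. ALDH1A3 shared 24.3%, nearly all with AC015712.2. Stretches were matched on either strand, and the strand of a match was not recorded. The libraries were made with a strand-keeping kit, and whether the counting used strand is not given in the sources used here. ALDH1A3 counts could therefore include reads of AC015712.2.

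Of the other 9 aldehyde dehydrogenase genes, 3 were higher and 1 lower by 2-fold or more in paclitaxel-resistant cells. Of all genes compared there, 20.5% were higher and 13.5% lower. In adriamycin-resistant cells 8 of the 9 reached the count minimum and 0 passed 2-fold, against 11.0% higher and 11.2% lower over all genes. The median log2 fold change of these other family genes was -0.12 in paclitaxel-resistant and 0.47 in adriamycin-resistant cells, against 0.07 and 0.03 over all genes. ALDH1L2, the mitochondrial 10-formyltetrahydrofolate dehydrogenase, had 749 counts in parental, 1923 in adriamycin-resistant and 213 in paclitaxel-resistant cells. Like ALDH1B1, its highest value was in the adriamycin-resistant and its lowest in the paclitaxel-resistant library. It was 5.42-fold lower (95% interval 4.65 to 6.34) in paclitaxel-resistant cells. ALDH3A1 had 186 counts in parental, 272 in adriamycin-resistant and 962 in paclitaxel-resistant cells, 3.35-fold higher (95% interval 2.86 to 3.95) in paclitaxel-resistant cells, with a log2 fold change of 0.00 in adriamycin-resistant cells. The other higher genes, chosen after their values were seen, had few counts. ALDH8A1 had 12, 29 and 87 counts, and ALDH1L1, the cytosolic relative of ALDH1L2, had 0, 2 and 43 counts. With the parental 0 set to 3 counts, ALDH1L1 was 9.29-fold higher in paclitaxel-resistant cells. The exact 95% interval from the counts of 43 and 0 has a lower limit of 7.24. ALDH4A1, ALDH5A1, ALDH6A1, ALDH16A1 and ALDH18A1 stayed within 2-fold in both resistant lines.

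Retinoid pathway genes upstream and downstream of the ALDH1A step included several with lower values in the resistant lines. Of 23 retinoid pathway genes, 17 were compared in paclitaxel-resistant cells, where 7 were at least 2-fold lower and 1 higher. In adriamycin-resistant cells 19 were compared, 5 lower and 3 higher. The shares over all genes compared were 13.5% lower and 20.5% higher in paclitaxel-resistant cells, and 11.2% and 11.0% in adriamycin-resistant cells. The median log2 fold changes of the list were -0.69 in paclitaxel-resistant and -0.32 in adriamycin-resistant cells, against 0.07 and 0.03 over all genes. The 1 gene higher in paclitaxel-resistant cells, named after its values were seen, was CYP26A1, which breaks down retinoic acid, with 0, 27 and 12 counts in parental, adriamycin-resistant and paclitaxel-resistant cells. It was also among the 3 higher in adriamycin-resistant cells, beside DHRS9, a retinol dehydrogenase with 0, 30 and 0 counts, and TGM2, a transglutaminase with 10, 42 and 12. Among the 5 lower there were STRA6, RDH10, LRAT and the receptor gene RARB. STRA6 was among the genes with known results when the list was written.

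STRA6, the cell surface receptor for retinol uptake, had 1252 counts in parental, 20 in adriamycin-resistant and 20 in paclitaxel-resistant cells. It was 90.9-fold lower (95% interval 59.1 to 151) in adriamycin-resistant and 95.8-fold lower (95% interval 62.2 to 159) in paclitaxel-resistant cells. RDH10, which makes the retinaldehyde that ALDH1A enzymes use, was 4.24-fold lower (95% interval 3.94 to 4.57) in adriamycin-resistant and 2.89-fold lower (95% interval 2.71 to 3.08) in paclitaxel-resistant cells. So these genes of retinol uptake and oxidation were lower in both resistant libraries. LRAT, which stores retinol as esters, had 135 counts in parental, 13 in adriamycin-resistant and 155 in paclitaxel-resistant cells, with log2 fold changes of -3.91 and -0.43.

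Downstream of the ALDH1A step, CRABP2, which carries retinoic acid to its receptors, had 12452 counts in parental, 13728 in adriamycin-resistant and 4586 in paclitaxel-resistant cells. It was 4.19-fold lower (95% interval 4.05 to 4.33) in paclitaxel-resistant cells and within 2-fold in adriamycin-resistant cells. RARRES1, named for its response to retinoic acid receptors, was 3.66-fold lower (95% interval 3.55 to 3.77) in paclitaxel-resistant cells, from 14892 to 6283 counts, and had 25695 counts in adriamycin-resistant cells. The receptors RARA and RARG had log2 fold changes of -0.02 and 0.11 in paclitaxel-resistant and -0.06 and -0.20 in adriamycin-resistant cells. RARB, with 46, 28 and 36 counts, was at -0.98 in paclitaxel-resistant and -1.26 in adriamycin-resistant cells. RXRB, a retinoid X receptor gene named after its values were seen, had 2267 counts in parental, 2137 in adriamycin-resistant and 1301 in paclitaxel-resistant cells, where its log2 fold change was -1.43. RXRA was at 0.52 in paclitaxel-resistant and 0.14 in adriamycin-resistant cells, and RXRG had 0 counts in all 3 libraries. Against these changes the scaled level of ALDH1A3 stayed within 2-fold in both lines.

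**Figure D2:**
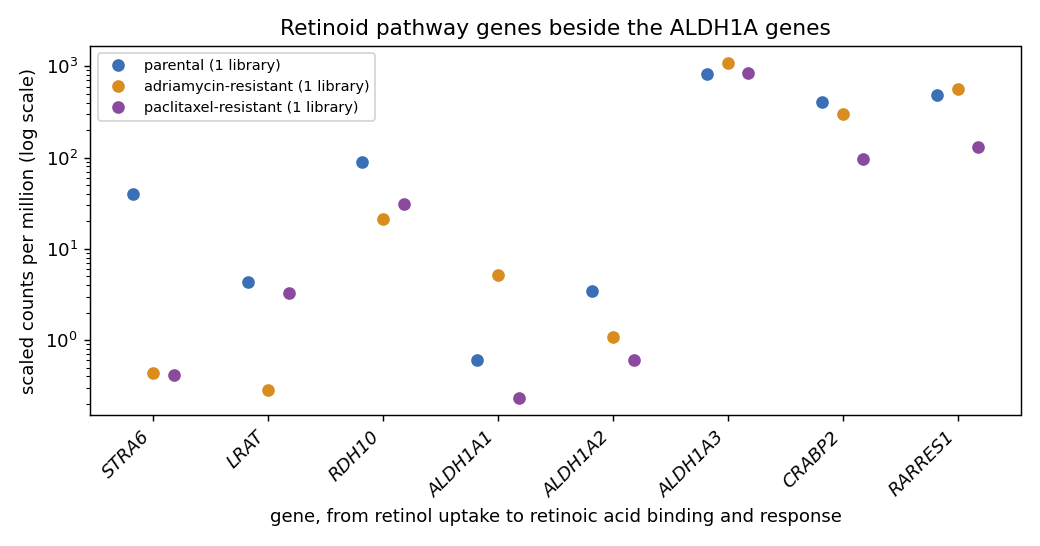
TMM-scaled CPM (log axis) of retinoid pathway genes and the ALDH1A genes in the 3 libraries, 1 library a line. STRA6 and RDH10 are below parental cells in both resistant libraries, CRABP2 and RARRES1 are lowest in paclitaxel-resistant cells, and ALDH1A3 is close in all 3.

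Enzymes that make or clear the aldehydes used by the family were also listed. Of 28 such genes, 17 were compared in paclitaxel-resistant cells, with 3 at least 2-fold higher and 6 lower. In adriamycin-resistant cells 17 were compared, with 3 higher and 3 lower. Over all genes compared, 20.5% were higher and 13.5% lower in paclitaxel-resistant cells, and 11.0% and 11.2% in adriamycin-resistant cells. The median log2 fold changes of the list were -0.46 in paclitaxel-resistant and -0.03 in adriamycin-resistant cells, against 0.07 and 0.03 over all genes. AOX1, an aldehyde oxidase that works without NAD, had 34 counts in parental, 2150 in adriamycin-resistant and 76 in paclitaxel-resistant cells. As for ALDH1A1, the adriamycin-resistant library was far above the others, and AOX1 was 43.1-fold higher (95% interval 30.8 to 62.6) there. PRODH, the first enzyme of proline breakdown upstream of ALDH4A1, had 1074 counts in parental, 82 in adriamycin-resistant and 30 in paclitaxel-resistant cells. Both resistant libraries were low, 19.1-fold lower (95% interval 15.3 to 24.3) in adriamycin-resistant and 54.9-fold lower (95% interval 38.4 to 82.2) in paclitaxel-resistant cells, and PRODH results were known when the list was written. CHDH, which makes betaine aldehyde from choline, was 4.56-fold lower (95% interval 4.04 to 5.16) and 4.46-fold lower (95% interval 3.96 to 5.03) in the same order. SGPL1, whose product is a fatty aldehyde oxidized by ALDH3A2, was 3.37-fold lower (95% interval 3.14 to 3.63) in paclitaxel-resistant cells. AKR1A1, an aldehyde reductase, had 1824 counts in parental, 2087 in adriamycin-resistant and 1171 in paclitaxel-resistant cells, with a log2 fold change of -1.26 in the latter. ADHFE1, an iron-containing alcohol dehydrogenase, had 47 counts in parental, 227 in adriamycin-resistant and 99 in paclitaxel-resistant cells, at 1.72 in adriamycin-resistant cells. Named after their values were seen, the 3 genes higher in paclitaxel-resistant cells were the amine oxidase genes AOC3 with 10, 51 and 34 counts and MAOA with 13, 2 and 63, and BBOX1 with 175, 270 and 645. BBOX1 makes carnitine from the product of ALDH9A1. AOC3 was also higher and MAOA lower in adriamycin-resistant cells. The alcohol dehydrogenases ADH1A, ADH1B, ADH1C, ADH4, ADH6 and ADH7 had 0 counts in all 3 libraries, and ADH5 stayed within 2-fold.

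Genes used to mark stem-like breast cancer cells, other than aldehyde dehydrogenases, were listed too. Of 19 such genes, 15 were compared in paclitaxel-resistant cells, with 8 at least 2-fold lower and 2 higher, and 13 in adriamycin-resistant cells, with 5 lower and 1 higher. The shares over all genes were 13.5% lower and 20.5% higher in the first and 11.2% and 11.0% in the second. The median log2 fold changes of the markers were -1.01 and -0.78, respectively. The 8 lower include SOX9, which just passes at -1.01, and CD24, whose low level marks stem-like cells. CD44, a surface marker used beside aldehyde dehydrogenase activity, had 54520 counts in parental, 30752 in adriamycin-resistant and 15668 in paclitaxel-resistant cells. It was 2.59-fold lower (95% interval 2.56 to 2.63) in adriamycin-resistant and 5.37-fold lower (95% interval 5.27 to 5.46) in paclitaxel-resistant cells. PROM1, which encodes CD133, had 7389 counts in parental, 1426 in adriamycin-resistant and 2402 in paclitaxel-resistant cells, 7.58-fold lower (95% interval 7.16 to 8.03) and 4.74-fold lower (95% interval 4.53 to 4.97) in the same order. CD24, a surface antigen, had 72887 counts in parental, 120837 in adriamycin-resistant and 33394 in paclitaxel-resistant cells, at -1.75 on the log2 scale in the last. ITGA6, an integrin subunit, had log2 fold changes of -1.22 and -1.69, and KLF4, a transcription factor, -1.13 and 0.92, in adriamycin- and paclitaxel-resistant cells. The 2 markers higher in paclitaxel-resistant cells, named after their values were seen, were LGR5 with 0, 0 and 67 counts and DCLK1 with 8, 4 and 34. In adriamycin-resistant cells POU5F1, with 32, 15 and 3 counts, was the fifth lower marker beside CD44, PROM1, ITGA6 and KLF4. PROCR was the 1 marker higher in adriamycin-resistant cells. It had 56 counts in parental, 274 in adriamycin-resistant and 41 in paclitaxel-resistant cells, with its highest value in the same library as ALDH1A1, and was 3.34-fold higher (95% interval 2.50 to 4.54) there.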

How the data were processed

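RNA from 1 library per line was prepared with a strand-keeping mRNA kit. The submitters' processing notes name Trimmomatic 0.39, HISAT2 2.2.1, StringTie 2.2.1 and GRCh38, without their roles, and the counting step and its strand setting are not given in the sources used here. The authors deposited whole-number read counts per gene without normalization, and FPKM and TPM values in the same table. The count totals are given in the report, and 3 counts correspond to 0.0968, 0.0661 and 0.0627 scaled CPM in parental, adriamycin-resistant and paclitaxel-resistant cells.

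Counts were scaled with TMM factors over the 3 libraries together (edgeR 4.0.16, R 4.3.3), so that 1 scale held for every comparison. A gene was compared when 1 of the 2 libraries had 10 or more counts. Log2 fold changes used a prior count of 0.125, and a change of at least 2-fold was counted. A fold against 0 counts was set against 3 counts. The 95% interval of a ratio came from the exact (Clopper-Pearson) binomial limits of 2 counts (scipy 1.17.1). With 1 library a line, no model of the spread can be fitted, and no test was run. The steps were tested on simulated data that carried counting error only. Such data cannot show how the intervals do with variation between cultures, which was not simulated.

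Members and lists were chosen with earlier results of these data known. All members were named. List genes were named when they had 100 or more counts in 1 library and a change of at least 2-fold from parental cells, at most 6 a list, and others are said to be chosen later. Values of some list genes are not reported here. Positions and promoters come from the RefSeq annotation of GRCh38.p14. Alternative settings comprised scaling by library size alone or by the size factors of DESeq2 1.42.0, TMM on 2 libraries, a prior count of 2, TPM and FPKM with pseudocounts of 1 and 0.1, other count minimums and a 4-fold threshold.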

Additional observations from a re-analysis of the deposited data

Results flagged for a closer look

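ALDH1A1 and ALDH1B1 differed in opposite directions from parental cells in the resistant lines, with counting intervals that left out no change in each. The log2 fold change of ALDH1A1 was 3.05 in adriamycin-resistant and -1.40 in paclitaxel-resistant cells. The second value rests on 19 parental and 11 paclitaxel-resistant counts and came to -0.16 from FPKM with a pseudocount of 1. That of ALDH1B1 was 0.51 in adriamycin-resistant and -1.65 in paclitaxel-resistant cells. Both values of a gene share the parental library, each rests on 1 library, and the difference between the lines was not tested.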

How the results depend on the processing

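No paired analysis was possible because every line was sequenced as a single library. Under scaling by library size alone, by DESeq2 or by TMM on only the compared libraries, a prior count of 2, no count minimum or genes counted in all 3 libraries, the numbers of members past 2-fold in either direction kept their values in each comparison. Library size alone shifted the median over all genes by 0.22 (log2) in paclitaxel-resistant against parental cells and raised the share of higher among changed genes from 60.4% to 71.2%. In paclitaxel-resistant cells, 3 members were lower from FPKM with a pseudocount of 1, 4 from FPKM with 0.1, from TPM with either pseudocount and with a minimum of 100 counts, and 2 at a 4-fold threshold, and 1 was higher from TPM with a pseudocount of 0.1. Between the resistant lines, 3 were lower from FPKM with a pseudocount of 1 or at 4-fold. In adriamycin-resistant against parental cells, 1 member was lower from TPM with a pseudocount of 1, and 0 from FPKM with that pseudocount or at a 4-fold threshold. A pseudocount shrinks the change of low genes by construction. Of 240 fold changes of members under the alternatives to scaling, prior count and unit, 141 lay within the counting interval and 92 outside it with the same sign. The other 7 lay outside it with the opposite sign, and 2 of the 141 also had the opposite sign, so that 9 did in all. These belong to ALDH3B1 in paclitaxel-resistant cells, ALDH3A2 in adriamycin-resistant cells and ALDH1A3 between the resistant lines. Depth limits ALDH1A1, ALDH1A2 and ALDH2, with 49 or fewer counts in at least 1 library.

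For all genes in paclitaxel-resistant against parental cells, 3924 passed 2-fold upward and 2569 downward. The numbers of higher genes were 2607 from TPM and 1374 from FPKM with a pseudocount of 1, 6952 over genes of any count, 1584 over genes reaching 100 counts and 1998 at 4-fold. Those of lower genes were 1055 and 1580 from TPM with pseudocounts of 1 and 0.1, 882 and 1586 from FPKM, 4033 without a minimum and 872 at 4-fold. In adriamycin-resistant cells, 1981 were higher and 2019 lower. From TPM and FPKM with 1 added, the respective pairs were 707 and 1085, and 460 and 663. They were 4252 and 3822 without a minimum, 825 and 1030 with a minimum of 100, and 878 and 711 at 4-fold. Between the resistant lines, 3870 were higher in paclitaxel-resistant cells and 2564 lower. The higher genes numbered 1334 from FPKM with a pseudocount of 1, 6651 without a minimum, 1632 with a minimum of 100 and 1784 at 4-fold. The lower genes numbered 871 and 1446 from TPM with pseudocounts of 1 and 0.1, 781 and 1517 from FPKM, 4114 without a minimum and 815 at 4-fold.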

Other observations

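Pseudogenes and antisense genes of the family had few counts. ALDH7A1P1, a pseudogene of ALDH7A1, had 3 counts in parental, 7 in adriamycin-resistant and 12 in paclitaxel-resistant cells. ALDH7A1P3, ALDH7A1P4 and ALDH1L1-AS1 had 0 counts in all 3 libraries, and ALDH1L1-AS2 had 2 in paclitaxel-resistant cells and 0 in the others.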
